A study of Mus musculus with 6 samples.

Results

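The subject is the baseline transcriptome of preSC cells, read from the 3 control libraries of a 6-library RNA-seq series. PreSC is a mouse cell line that the labels place ahead of small cell lung cancer (SCLC) as a precursor. Of the 3 controls, 2 carried the empty pLKO.1-TRC lentiviral vector (shEmpty 1 and shEmpty 2) and 1 carried the same vector with a non-silencing hairpin (shNS). The other 3 libraries carried hairpins against Crebbp and enter no level given here. Each control thus carries a lentiviral vector, so these values describe vector-bearing cells and not untransduced ones. The labels give no genotype, sex, passage or culture for the cells, which are 1 line. Nothing in the labels tells if each library is its own culture, so any p-value measures only the spread between these libraries.

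Pulmonary neuroendocrine cells are rare airway epithelial cells that sense the air and release peptides and amines from dense-core granules. They keep the adhesion proteins and simple keratins of an epithelium and use a secretory and synaptic apparatus shared with neurons. SCLC is a tumour with neuroendocrine features, and the mouse models from which lines of this name are known were made by deleting Rb1 and Trp53 in the lung.

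The controls held 19804949, 16446925 and 13687770 reads on genes in the order shEmpty 1, shEmpty 2 and shNS, which is the order of all triplets of values below. Levels are CPM (counts per 1000000 reads on genes), scaled by the TMM method. A level of 1 CPM stood for 19.6, 16.5 and 13.8 reads. Of the 23284 gene symbols with a row, 12636 (54.3%) were expressed, meaning at least 1 CPM in each of the 3 libraries. Another 7022 (30.2%) were silent, meaning below 0.1 CPM in each, and 5791 of all genes had no read in any control. The remaining 3626 genes lay between these limits, and many of those were also close to 0. The median over all genes was 3.19 CPM. These shares, 54.3% expressed and 30.2% silent, are the background for each list of genes below. A count of 0 allows up to 3 reads, or 0.153, 0.182 and 0.217 CPM, and covers counting error only. Errors are SDs over the 3 libraries. Levels of different genes are compared as TPM (transcripts per 1000000 transcripts), which divide the counts by the longest annotated transcript of the gene. The libraries are bulk cultures, in which fewer cells that express a gene and less RNA per cell cannot be told apart.

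The 6 genes taken as markers of these cells were all expressed. Calca, which encodes calcitonin and the neuropeptide CGRP, was at 2007, 1799 and 1579.6 CPM (mean 1795 ± 214, n = 3). It was lowest in shNS and highest in shEmpty 1. Chga, a structural protein of dense-core granules, was at 460.4, 470.0 and 448 CPM, and Ret, a receptor tyrosine kinase of neurons and neuroendocrine cells, at 317, 294 and 253 CPM. Chga hardly moved between libraries, with an SD of 11.2 CPM around a mean of 459, whereas Ret was lowest in shNS. The epithelial cadherin gene Cdh1 was at 752, 655 and 543 CPM. The partner keratins of simple epithelia, Krt8 and Krt18, were at 923, 885 and 801 CPM and at 361, 362 and 363 CPM. Per length, Calca led the 6 at 4832 ± 589.6 TPM, followed by Krt8 at 1189 ± 88.5, Krt18 at 675 ± 1.39, Chga at 653 ± 16, Cdh1 at 393 ± 64.4 and Ret at 141 ± 16.2 TPM. The values for Krt18 and Chga differed by less than 2 SDs, so these neighbours are not separated by their SDs. An SD over libraries takes no account of the order within each library.

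**Figure D1:**
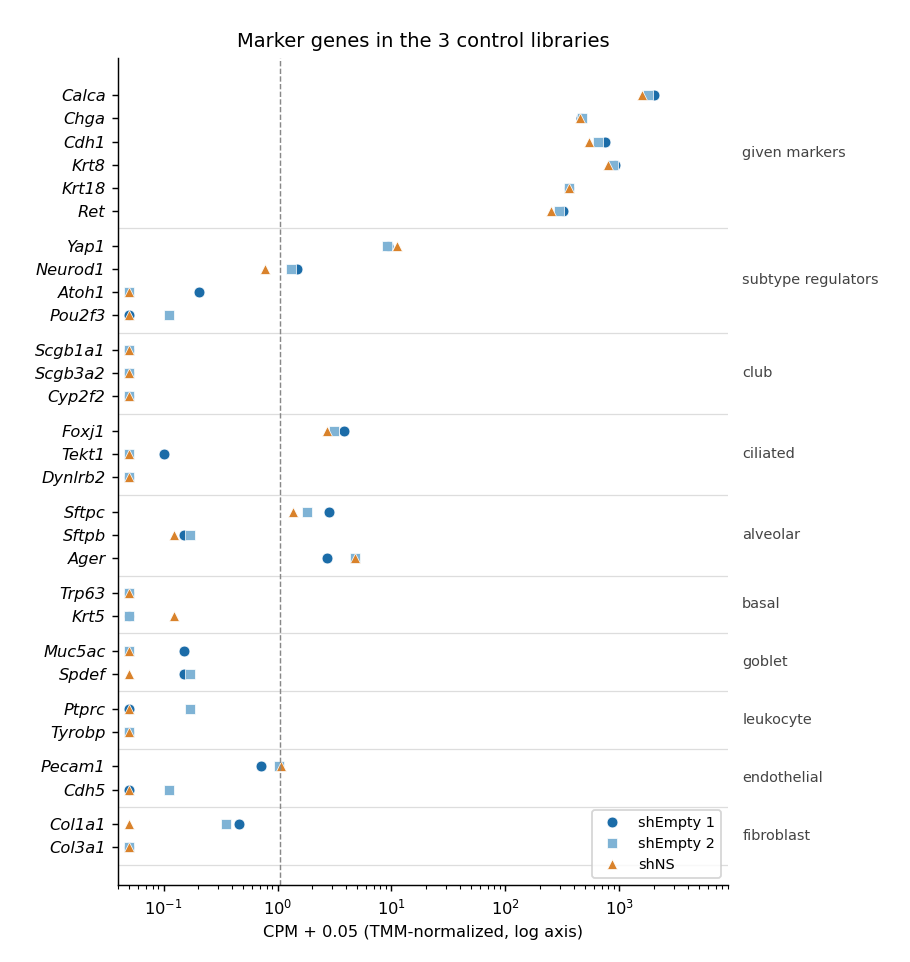
CPM plus 0.05 on a log axis for 29 genes in each of the 3 control libraries (circles shEmpty 1, squares shEmpty 2, triangles shNS), grouped by the cell type that they mark. The 6 given markers lie above 100 CPM in each library, while the genes plotted for club, goblet and basal cells lie at or near 0. The plotted genes were chosen from longer lists. Expressed members such as Aldh1a7 (club), Snai2 (basal), Abca3 and Emp2 (alveolar), Coro1a (leukocyte) and Dcn (fibroblast) are not plotted. The dashed line marks the 1 CPM limit for an expressed gene.

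The 250 bases upstream of the RefSeq start (build GRCm38.p6) are shown for those markers with an entry, because they show how unlike in base composition the start regions of strongly expressed genes were. They are written 5′ to 3′ on the strand of the gene. Capitals mark TGACG, the core of the cAMP response element that CREB-family factors bind, or TATAA, the core of the TATA box, the latter searched for in the last 50 bases only. Both strands were searched for each. The regions are chr7:114636358-114636607 (minus strand) for Calca, chr12:102554691-102554940 (plus strand) for Chga, chr15:102004343-102004592 (minus strand) for Krt8 and chr15:102027966-102028215 (plus strand) for Krt18.
Calca: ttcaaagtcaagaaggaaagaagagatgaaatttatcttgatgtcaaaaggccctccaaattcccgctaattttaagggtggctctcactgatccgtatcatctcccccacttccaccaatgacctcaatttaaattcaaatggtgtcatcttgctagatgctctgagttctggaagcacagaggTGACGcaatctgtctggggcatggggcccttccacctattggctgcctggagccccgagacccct
Chga: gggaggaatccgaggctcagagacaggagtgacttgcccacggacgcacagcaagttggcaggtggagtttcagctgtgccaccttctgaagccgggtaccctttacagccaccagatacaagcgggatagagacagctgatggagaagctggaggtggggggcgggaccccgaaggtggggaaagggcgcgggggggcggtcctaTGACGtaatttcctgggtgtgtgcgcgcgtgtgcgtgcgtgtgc
Krt8: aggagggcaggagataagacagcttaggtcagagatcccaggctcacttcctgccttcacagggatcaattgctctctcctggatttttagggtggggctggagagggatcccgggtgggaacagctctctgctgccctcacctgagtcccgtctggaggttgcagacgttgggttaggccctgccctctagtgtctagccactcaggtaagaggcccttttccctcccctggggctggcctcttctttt
Krt18: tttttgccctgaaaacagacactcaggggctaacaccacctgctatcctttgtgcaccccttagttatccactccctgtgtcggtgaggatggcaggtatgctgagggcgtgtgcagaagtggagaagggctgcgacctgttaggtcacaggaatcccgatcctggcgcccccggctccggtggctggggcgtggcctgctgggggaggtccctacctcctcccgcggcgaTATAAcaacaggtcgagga
TGACG began 65 bases before the start in Calca and 44 bases before it in Chga, and TATAA began 19 bases before the start in Krt18. The Krt8 window held neither. Calca and Krt8 had 4 and 3 CpG pairs in these 250 bases, against 16 in Chga and 12 in Krt18. Among all 32851 promoters in the RefSeq table (several genes have more than 1), the median was 6 CpG pairs, 17.8% held TGACG and 6.36% held TATAA in the last 50 bases. The 11567 promoters of expressed genes had a median of 16 CpG pairs, 26.9% with TGACG and 3.15% with TATAA. The 4721 promoters of silent genes had a median of 2 CpG pairs, 9.57% with TGACG and 13.7% with TATAA. The first of these motifs itself contains a CpG pair, so its share moves with CpG content. Calca and Krt8, both strongly expressed, thus had CpG counts closer to the median of silent genes than to that of expressed genes. A match of letters is a description and not evidence of binding.

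The most abundant messages were mostly those of growing cells in general, with a neuroendocrine group among them. By CPM the order began with Eef1a1, a translation elongation factor, at 5020.4 ± 325. It was followed by the nuclear protein gene Ptma at 4258 ± 96.4, the histone variant gene H3f3b at 3793 ± 126, and Hmgn2, a nucleosome-binding protein, at 3315 ± 262 CPM. The other members of the 20 highest by CPM included Stmn1 (a microtubule-destabilizing phosphoprotein, 2468 CPM), Gnas (the stimulatory G protein alpha subunit and secretogranin-like NESP55 locus, 2187), Nnat (the imprinted neuronatin gene, 1885), Top2a (topoisomerase of dividing cells, 1762) and Calca. The heat shock proteins Hspa8 and Hsp90ab1, the RNA helicase Ddx5, the elongation factor Eef2, the tubulin Tubb5 and the nuclear RNA Malat1 were also among them.

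The secreted proteins Nov and Igfbp5 stood among the same 20. Nov, a matricellular protein also called CCN3, was at 2128, 2006 and 1935 CPM. Igfbp5, which binds insulin-like growth factors, was at 1509, 1866 and 2329 CPM and was the higher in shNS. Rn45s, the ribosomal RNA precursor, was at 2171, 2270.2 and 3085 CPM, so ribosomal RNA was counted as well despite the poly(A) selection. It has no transcript length in the annotation used and therefore no TPM.

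Ranking per length changed the picture, and 8 genes stood in both lists of 20. By TPM the order was Ptma (9368 ± 244), Eef1a1 (7487 ± 508), Stmn1 (6229 ± 270.4) and then Calca (4832 ± 589.6). Short ribosomal protein genes made up 10 of the 20 highest by TPM, led by Rpl41 at 4720.0 ± 240.5 TPM, and 0 of the 20 highest by CPM. The tetraspanin gene Cd9 (3218 ± 297 TPM) and Tpt1 (3342 ± 68.8 TPM) were also in it. Calca was 4th with the longest transcript of each gene and 7th when the median transcript length was used in its place. Reads were spread over many genes: the 10 most abundant held 3.2% of all gene reads, the 100 most abundant 13.4% and the 1000 most abundant 43.6%. Of all genes, 58 averaged 1000 CPM or more.

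The neuroendocrine peptides were nearly a matter of 1 gene. Of the peptide hormone and neuropeptide genes with a row, 8 of 48 were expressed and 21 were silent, against 54.3% and 30.2% of all genes. Calca held 99.6% of the summed TPM of the calcitonin family, with Calcb, which encodes the other CGRP, at 2.58 CPM and the amylin gene Iapp at 1.33, 0.91 and 1.3 CPM. The next peptide was Cartpt, encoding CART peptide, at 36.6, 39.5 and 46.9 CPM. Pomc, the precursor of ACTH, was at 6.94, 7.59 and 6.95 CPM. Grp, the bombesin-like peptide of human pulmonary neuroendocrine cells and SCLC, was at 3.72, 4.49 and 4.71 CPM, and its relative Nmb at 1.89, 3.16 and 2.39 CPM. Adm2 was at 3.98 and Cck at 2.12 CPM. The genes Gal, Npy, Pyy, Vip and Gast were silent. The median of the list was 0.105 CPM, against 3.19 CPM over all genes.

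The enzymes that turn prohormones into active peptides were expressed in 9 of 10 cases, with a median of 171 CPM. Pam, which amidates peptide ends as in CGRP, was at 677, 585 and 485 CPM. The prohormone convertase Pcsk1 was at 633, 564 and 491 CPM and its partner Pcsk2 at 245, 276 and 292 CPM. Pcsk1 took 65.9% of the TPM of the pair, from 61.2% to 70.8% over libraries, with the lowest share in shNS. Cpe, the carboxypeptidase that trims the cut ends, was at 359.5 ± 41.5 TPM, next to Pam at 379.6 ± 63.8 and Pcsk1 at 299 ± 38.6 TPM. The general convertase genes Furin and Pcsk7 were lower, at 33.4 ± 2.38 and 37.5 ± 0.676 TPM.

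Granule proteins were expressed almost throughout, in 15 of 16 cases, with a median of 127 CPM. After Gnas, the highest per length were Chga (653 ± 16 TPM), Scg5 (the convertase chaperone 7B2, 274 ± 26.9), Scg3 (242 ± 2.47), Chgb (241 ± 4.69) and Ptprn (the granule protein IA-2, 184 ± 13.3 TPM). Chga stood above Chgb by more than their SDs, whereas Scg3 and Chgb were not separated. Cadps2, which primes dense-core granules for release, was at 363, 301 and 254 CPM. The single silent member was Sytl4, which encodes the Rab27 effector granuphilin, although Rab27a itself was at 81.6 CPM.

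The machinery that fuses vesicles with the membrane was expressed in 24 of 24 cases, with a median of 49.6 CPM. Cplx2, encoding complexin 2, which clamps SNARE complexes, was at 1387, 1428 and 1279 CPM. It took 97% of the joint TPM of Cplx1 and Cplx2, the only complexin genes compared. The vesicle SNARE Vamp2 was at 354 ± 2.19 TPM and the vesicle protein synaptophysin, Syp, at 179 ± 0.229 TPM, with Syt7 at 134 ± 12.7 TPM. The neuronal SNARE Snap25 took 82.9% and its ubiquitous relative Snap23 17.1% of their joint TPM. Syt1, the calcium sensor of fast release, was at 252, 234 and 189 CPM.

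Amine genes were split. Ddc, the decarboxylase that makes serotonin and dopamine from their amino acid precursors, was at 1020.2, 979 and 931 CPM and 1295 ± 62.8 TPM, the highest of the list. The vesicular monoamine transporter gene Slc18a1 was at 166, 149.8 and 135 CPM and held 96.6% of the TPM of the transporter pair. The enzymes ahead of Ddc were low: Tph1, which starts serotonin synthesis, was at 3.01, 5.34 and 4.49 CPM and Th, which starts catecholamine synthesis, at 5.05, 5.16 and 4.42 CPM. Dbh and Pnmt, needed for noradrenaline and adrenaline, were silent, and Tph2 and Hdc averaged 0.177 and 0.526 CPM. In all, 9 of 19 members were expressed, a share below the 54.3% of all genes, with a median of 0.89 CPM.

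Proteins shared with neurons were expressed in 18 of 23 cases, with a median of 76.7 CPM. Stmn1 led with 6229 ± 270.4 TPM, followed by the ubiquitin hydrolase Uchl1 (PGP9.5, 1169.7 ± 97.9), the granule protein Resp18 (729.9 ± 75.7), Stmn3 (623 ± 104) and Bex2 (351 ± 34.5 TPM). The neuronal RNA-binding proteins Elavl3 and Elavl4 were at 314, 340.3 and 336 CPM and at 235, 231 and 254 CPM. Ncam1, the adhesion molecule CD56 used to diagnose SCLC, was at 170.4, 194 and 212 CPM. Cytoskeletal genes of mature neurons were uneven. The microtubule proteins Mtap2 (MAP2) and Mapt (tau) were at 152 and 45.5 CPM and the neurofilament gene Nefh at 74.3 CPM, while the neurofilament gene Nefl was at 0.0483 CPM and the growth cone protein Gap43 at 1.21 CPM.

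**Figure D2:**
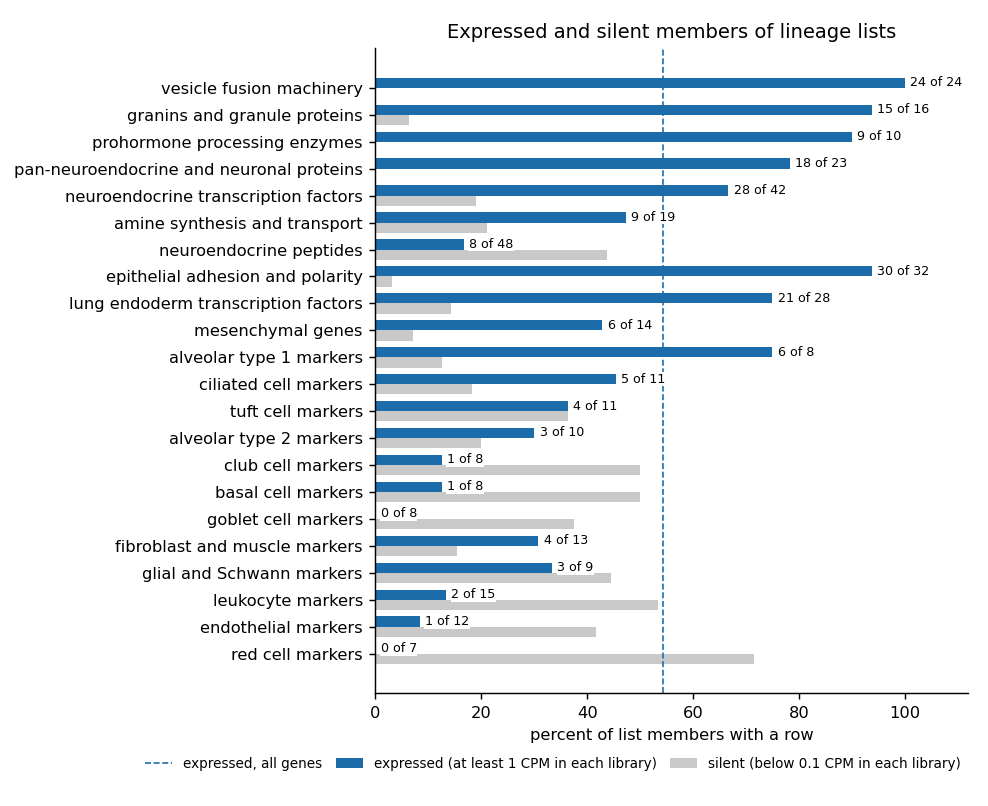
Percent of the members with a row that were expressed (blue, with counts) or silent (grey) in 22 lists of genes, over the 3 control libraries. The dashed line is the 54.3% of all genes that were expressed. The lists for vesicle fusion, granules and prohormone processing lie right of it, and those for leukocytes, endothelium, red cells, basal and goblet cells lie far left.

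Among the transcription factors of neuroendocrine and neuronal cells, 28 of 42 were expressed, with a median of 9.99 CPM. Insm1, a zinc finger factor of neuroendocrine differentiation, was at 752, 746 and 698 CPM. Nkx2-1, the lung and thyroid homeobox factor, was at 509, 549 and 533 CPM. The pioneer factors Foxa1 and Foxa2 were at 469.6, 448 and 396 CPM and at 204, 207 and 198 CPM. Hes6, a neurogenic member of the HES family, was at 225, 271 and 316 CPM and was the lowest in shEmpty 1. The neural factor Sox1 averaged 375 ± 20.4 CPM. Neurod2, Neurod6, Neurog1, Nkx2-2, Isl1 and Pou3f3 were silent. Rest, the repressor of neuronal genes outside neurons, was at 0.408, 0.121 and 0.362 CPM.

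SCLC is commonly divided by which of a few regulators is expressed. Among them Yap1 was at 9.29, 9.1 and 11.2, Neurod1 at 1.43, 1.27 and 0.724, Atoh1 at 0.153, 0 and 0 and the tuft cell factor Pou2f3 at 0, 0.0607 and 0 CPM.

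Notch genes showed ligands above receptors. Jag2 was at 187, 189 and 181 CPM, Dll3, an inhibitory ligand used as a target in SCLC, at 59.9, 60.6 and 52.6 CPM and Dll1 at 46.3, 42.9 and 41.8 CPM. Among the receptors Notch2 was at 5.56, 5.64 and 5.94 CPM, Notch4 at 2.31, Notch1 at 0.459, 0.486 and 0.507 and Notch3 at 0, 0 and 0.217 CPM. Per length, the ligands were led by Jag2 (97.3 ± 2.36 TPM) and Dll3 (58.9 ± 4.61 TPM), while no receptor exceeded 1.46 TPM. Of the HES and HEY genes that Notch switches on, Hes1 was at 18.3, 20.1 and 25.5 CPM, Hey1 at 29.2, 28.6 and 28.8 and Hes5 at 1.53, 1.03 and 0.869 CPM. The Notch feedback gene Nrarp was at 34.5 CPM.

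The lung endoderm factors were expressed in 21 of 28 cases, with a median of 27.9 CPM. Besides Nkx2-1, Foxa1 and Foxa2 these included Id2 (415 CPM), Sox2 of the proximal airway (109.6, 109 and 98.5 CPM), Irx2, Irx5, Foxp1, Foxp4 and Nfib (176 CPM), a driver of metastasis in mouse SCLC. Sox9, the factor of distal buds, was at 0.153, 0.182 and 0.0724 CPM. Gata6 was at 30.5 CPM while Gata4, Sox17, Tbx4 and Tbx5 were silent.

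The HOX genes fell into 1 expressed cluster and 3 clusters at or near 0. These genes encode homeobox factors that mark position along the body axis, and in the mouse they lie in the clusters A, B, C and D. In the B cluster 8 of 10 genes were expressed, with 22026 reads over the 3 libraries. In the A, C and D clusters 0 of 29 were expressed and 24 had no read at all, with 6 reads in total. Hoxb5 was at 114, 126 and 132 CPM, Hoxb4 at 98.7 ± 16.5, Hoxb2 at 88.4, 94.4 and 91.5 and Hoxb3 at 79.2, 87 and 72.9 CPM. Per length the order was Hoxb5 (119 ± 8.59 TPM), Hoxb4 (103 ± 16.9), Hoxb2 (78 ± 2.32), Hoxb3 (66.8 ± 5.86), Hoxb6 (40.0 ± 5.12), Hoxb7 (15.2 ± 2.65), Hoxb8 (13.7 ± 3.09) and Hoxb9 (1.45 ± 0.406 TPM). The expressed genes form the stretch from paralogue group 2 to 9 of the cluster, and Hoxb1 and Hoxb13 on either side had no read. The SDs of Hoxb5 and Hoxb4 and of Hoxb7 and Hoxb8 overlapped, so these neighbours in the order are not separated.

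**Figure D3:**
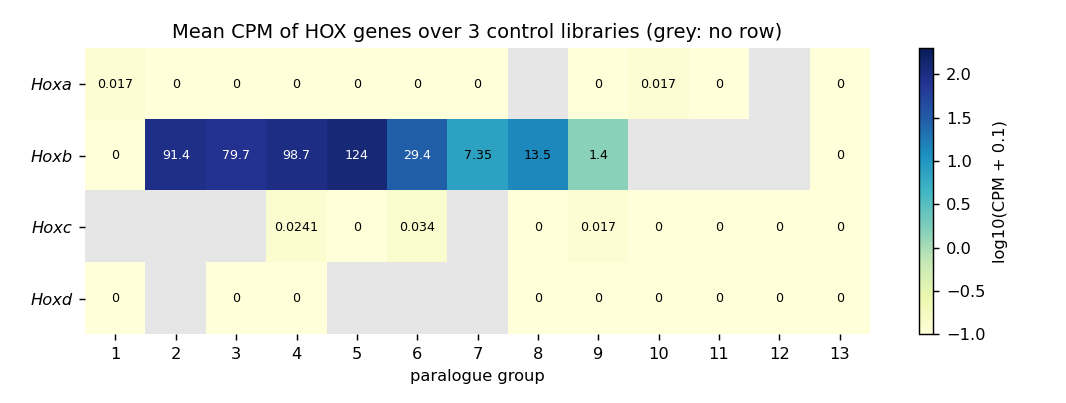
Mean CPM over the 3 control libraries for each HOX gene with a row, by cluster (rows) and paralogue group (columns), with colour on a log10(CPM + 0.1) scale and grey where the files have no row. Paralogue groups 2 to 9 of the B cluster run from 1.40 to 124 CPM, and the A, C and D rows hold no value above 0.034 CPM.

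Hoxb4 of the expressed cluster and Hoxa5 of a silent one are shown to compare their start regions. They lie at chr11:96318017-96318266 (plus strand) and chr6:52204588-52204837 (minus strand) in GRCm38.p6.
Hoxb4: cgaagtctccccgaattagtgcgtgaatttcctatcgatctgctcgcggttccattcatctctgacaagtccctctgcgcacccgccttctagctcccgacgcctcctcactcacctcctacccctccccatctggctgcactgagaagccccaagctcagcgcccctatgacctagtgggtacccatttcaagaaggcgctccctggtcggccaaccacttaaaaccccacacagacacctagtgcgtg
Hoxa5: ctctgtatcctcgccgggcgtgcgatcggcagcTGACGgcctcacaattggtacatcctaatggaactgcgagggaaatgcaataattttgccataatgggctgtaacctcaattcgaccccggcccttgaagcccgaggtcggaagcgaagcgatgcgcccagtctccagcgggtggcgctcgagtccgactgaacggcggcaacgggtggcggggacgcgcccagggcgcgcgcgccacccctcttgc
Capitals again mark TGACG, found in Hoxa5 at 217 bases before the start. Hoxa5 had 28 CpG pairs in these 250 bases and Hoxb4 had 14. Hoxa5 was without a read and Hoxb4 at 98.7 CPM, so between these windows the silent gene was the richer in CpG pairs, unlike the medians of silent and expressed genes given above.

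Most marker lists of other cell types had a smaller share of expressed members than all genes, and some members of most lists were expressed. The share was highest for the alveolar type 1 list, at 6 of 8 (75%) against 54.3% of all genes. Whether a few cells of those types were present was not tested. Of the club cell genes, Scgb1a1, Scgb3a2 and Cyp2f2 had no read in any library. The single expressed member was Aldh1a7, an aldehyde dehydrogenase, at 488, 462 and 433 CPM, which made up nearly all of the summed 435 to 488 CPM of that list. The other ALDH1A genes with a row were expressed too: Aldh1a1 at 127, Aldh1a2 at 75.2 and Aldh1a3 at 63.1 CPM. Of the goblet cell genes 0 of 8 were expressed, with a summed level of 1.45 to 1.74 CPM. Of the basal cell genes only Snai2 was, at 5.61, 4.73 and 5.07 CPM, while Trp63, Krt5, Krt14 and Krt15 were silent.

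Alveolar and ciliated genes were expressed in part. The surfactant gene Sftpc, specific for alveolar type 2 cells, was at 2.76, 1.76 and 1.3 CPM, Sftpb at 0.102, 0.121 and 0.0724 CPM, and Sftpd and Slc34a2 had no read. The type 2 lipid transporter Abca3 was at 72, 76 and 76.6 CPM. The alveolar type 1 list was expressed in 6 of 8 cases, led by Emp2 (100.1 CPM), with Ager at 2.65, 4.73 and 4.71, Aqp5 at 4.44, 4.67 and 3.91 and Hopx at 2.6, 3.82 and 2.97 CPM, whereas Cav1 was silent. Of the ciliated cell genes 5 of 11 were expressed. By CPM Ccdc40 was highest at 31.7, 32.3 and 26.6, followed by Rsph1 at 16.8, 16.8 and 14.1 CPM and Tppp3 at 10.7 CPM. Ccdc39 was at 3.5 CPM and the master regulator Foxj1 at 3.78, 3.1 and 2.68 CPM, while Tekt1 and Dynlrb2 were silent. The summed level of the ciliated list was 60.1 to 70.0 CPM. Tuft cell genes included Hmx2 at 15.7, Avil at 13 and Dclk1 at 14.4 CPM, with Trpm5, Gnat3 and Gfi1b silent.

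The lists for blood, vessel and connective tissue cells had smaller shares of expressed members than the 54.3% of all genes. These were 13.3% for leukocyte, 8.33% for endothelial and 30.8% for fibroblast and muscle genes. Of the leukocyte genes 2 of 15 were expressed, namely Coro1a at 76.8, 78.7 and 69.6 CPM and Cd68 at 2.55, 4.67 and 4.85 CPM, and the pan-leukocyte gene Ptprc was at 0, 0.121 and 0 CPM. Among endothelial genes only Erg, an ETS factor, was expressed, at 5.1, 5.04 and 4.06 CPM, and Cdh5 and Tie1 were silent. Of fibroblast and muscle genes 4 of 13 were expressed, led by the proteoglycan Dcn at 43.4, 38.3 and 35.3 CPM, while Col1a1 was at 0.408, 0.303 and 0 CPM, and Col3a1 and Lum had no read. Globin genes had no read. In the glial list Mbp was at 151, 139 and 124 CPM and Sox10, Gfap and Olig2 were silent. The summed levels were 75.5 to 84.7 CPM for leukocyte, 6.37 to 7.34 for endothelial, 44.7 to 52 for fibroblast and 140.2 to 171 CPM for glial genes.

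Genes of other endodermal organs were expressed in 9 of 24 cases. The highest per length were the transthyretin gene Ttr (45.5 ± 1.14 TPM) and the homeobox factor Nkx6-2 (27.4 ± 2.18 TPM), followed by Vil1. Alb, Afp, Cdx1, Pax4 and Rfx6 were silent. Of the pluripotency and germline genes, Lin28a, an RNA-binding protein of early embryos, was at 52.3, 53.8 and 53.4 CPM and the telomerase gene Tert at 6.63, 5.77 and 5.36 CPM. Pou5f1 was at 0, 0.121 and 0 CPM, and Zfp42 and Dppa3 were silent.

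The epithelial adhesion and polarity genes were expressed in 30 of 32 cases, with a median of 34.6 CPM. Epcam, the adhesion molecule of simple epithelia, was at 763, 630.2 and 510.3 CPM and 832 ± 168 TPM, above Cdh1 at 393 ± 64.4 TPM. The desmosome and adherens linker Jup was at 358 CPM, the protease inhibitor Spint2 at 345 CPM and the splicing regulator Esrp1, which maintains epithelial isoforms, at 178, 169 and 143 CPM. Grhl3, a grainyhead-like epithelial factor, was at 0.632 CPM.

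Keratins were restricted to a few genes. Of those with a row, 6 of 51 were expressed and 33 were silent, 27 of them without a read. Krt8 was highest per length at 1189 ± 88.5 TPM, followed by its fellow type II keratin Krt7 at 692 ± 19.3 and by Krt18 at 675 ± 1.39 TPM, the last 2 being within their SDs of each other. By CPM Krt7 was at 1024, 1089.8 and 1066. Among the 28 type I keratins Krt18 held 98.2% of the summed TPM, while Krt19, the other common partner of Krt8, was at 0.255, 0.364 and 0.869 CPM.

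Among other adhesion families, claudins were expressed less often than the 54.3% of all genes and cadherins about as often (26.9% and 56.5%). Of the tight junction claudins 7 of 26 were expressed: Cldn7 was at 138, 133 and 121 CPM and Cldn3 at 122, 116 and 97.2 CPM, while Cldn4 was at 0.612, 0.546 and 0.507 CPM and the lung claudin Cldn18 was silent. Of the cadherins 13 of 23 were expressed. Besides Cdh1, the neural cadherin Cdh2 was at 214, 209 and 201 CPM, so both were present in the same cultures, with Cdh1 the higher per length by 393 to 115 TPM. Cdh13 and Cdh22 were at 126 and 107 CPM.

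Of the mesenchymal genes 6 of 14 were expressed, with a summed level of 298 to 303 CPM, most of it from Cdh2. Vim, the intermediate filament gene of mesenchymal cells, was at 0.051, 0.303 and 0.507 CPM. The repressors of Cdh1 differed: Zeb1 was at 54.6, 58.1 and 64.7 CPM, Zeb2 at 4.95, Snai1 at 1.25 and Twist1 at 0.0816 CPM, and Twist2 had no read. Sparc and Fbn1 averaged 0.0894 and 0.0784 CPM.

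Matrix genes were expressed in 16 of 43 cases for collagens, 5 of 11 for laminins and 13 of 27 for integrins. These shares of 37.2%, 45.5% and 48.15% were below the 54.3% of all genes. Col8a1, a short-chain collagen, was at 654, 567 and 521 CPM and led its family at 304 ± 36.5 TPM. The basement membrane chains Col4a1 and Col4a2 were at 64.1 and 129 CPM. The integrin subunit Itgb1 was at 549, 506 and 493 CPM, with Itga3 at 118 and Itga6 at 53.2 CPM as the most abundant alpha chains. Among laminin chains Lamc1 was highest at 63.6 CPM, and Lama1, Lama2 and Lamc3 were silent.

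The receptors that these cells could use for peptides of their own kind were few. Calcrl, which forms the CGRP receptor with RAMP1, and Calcr were silent, although Ramp1 was at 2.35, 3.28 and 5.14 CPM and Crcp at 30.1 CPM. Grpr, the receptor for GRP, was silent and Nmbr, that for neuromedin B, was at 0.765, 0.425 and 0.942 CPM.

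Of the list of RET, co-receptor and ligand genes 6 of 11 were expressed, a share near the 54.3% of all genes. They were Ret, Gfra1, Gfra4 and the ligand genes Nrtn, Artn and Gdf15. RET binds ligands of the GDNF family only together with a GFR alpha co-receptor. Gfra1, the co-receptor for GDNF, was at 53.2, 45.9 and 30.9 CPM, and Gfra4 at 3.5 CPM, while Gfra3 was silent. Of the ligands, Nrtn was at 27.6, 27.9 and 23.2 CPM and Artn at 14.5, 14.1 and 12.3 CPM, and Gdnf itself had no read. The co-receptors that Nrtn and Artn prefer are Gfra2, at 0.408, 0.243 and 0.435 CPM, and Gfra3.

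Among receptor tyrosine kinases 32 of 51 were expressed (62.75%, against 54.3% of all genes). Per length Ret was the highest at 141 ± 16.2 TPM, followed by Ephb3 (108 ± 2.38), Ddr1 (103 ± 10.4), Ryk (97.2 ± 3.07) and Kit (52.2 ± 3.18 TPM). Kit, the stem cell factor receptor found in SCLC, was at 109, 99.5 and 98.4 CPM. Egfr was at 99.4, 84.1 and 76.4 CPM and Erbb3 at 18 CPM, whereas Erbb2 was silent at 0, 0.0607 and 0.0724 CPM. Csf1r, Musk, Mertk and Tie1 were also silent.

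Of the Wnt, FGF and BMP genes 36.8%, 27.3% and 27.3% were expressed, below the 54.3% of all genes. Their silent shares of 31.6%, 36.4% and 27.3% were near the 30.2% of all genes. Of the Wnt ligands 7 of 19 were expressed, led by Wnt3 (26.9 ± 1.11 TPM), Wnt4 (24.9 ± 0.492) and Wnt5b (22.5 ± 1.99 TPM), and of the Frizzled receptors 8 of 10. Of the FGF genes 6 of 22 were expressed, and the 3 highest, Fgf14 (104 CPM), Fgf13 (44.4) and Fgf12 (27.2 CPM), belong to the intracellular group that binds sodium channels and is not secreted. Of the BMP genes 3 of 11 were expressed, with Bmp2 at 54.9, 48.7 and 45.4 CPM.

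The list for sensing of stretch, oxygen and mediators by airway neuroendocrine cells was expressed in 14 of 21 cases. It holds channel genes but also Cybb and the genes of prolyl hydroxylases and HIF factors. Kcnk5, Kcnma1 and Kcnk9 averaged 0.361, 0.0685 and 0.0405 CPM, and Cybb had no read. Fam38b, the older symbol of the stretch-gated channel gene Piezo2, was at 405, 368 and 327 CPM. It took 89% of the TPM of the Piezo pair, against 11% for Fam38a (Piezo1). The background potassium channels Kcnk1, Kcnk2 and Kcnk3 were at 107, 92.8 and 39.2 CPM, with Kcnk3 at 52.7, 41.5 and 23.5 over libraries and lowest in shNS. The ATP-gated channel gene P2rx3 was at 5.1, 12.1 and 25.1 CPM, and the serotonin-gated channel gene Htr3a at 7.14, 6.01 and 4.78 CPM. Among the prolyl hydroxylases that sense oxygen, Egln1, Egln2 and Egln3 were at 97.8, 89.2 and 77.5 CPM. Hif1a was at 217 and Epas1, its relative HIF2A, at 5.48 CPM.

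The proliferation genes were all expressed, 20 of 20, with a median of 263 CPM. Top2a was at 1962, 1744 and 1579 CPM, the division antigen gene Mki67 at 1041, 968 and 876 CPM and the replication clamp gene Pcna at 596, 606 and 636 CPM. Among cyclins and their kinases the D cyclins were low: Ccnd3 was at 14.1, 16.3 and 15.1 CPM, Ccnd1 at 3.78, 4.01 and 4.64 CPM and Ccnd2 at 0, 0.0607 and 0.145 CPM. Ccnd3 took 77.9% of their summed TPM. Cdk4, their kinase, was at 446, 447 and 445 CPM, and its relative Cdk6 at 0.0405 CPM. Per length most E, A and B cyclins were above Ccnd3 (10.5 ± 0.708 TPM), with Ccnb2 at 317 ± 48.3, Ccnb1 at 312 ± 45.1, Ccna2 at 237 ± 22.2, Ccne2 at 62.5 ± 5.02 and Ccne1 at 49.8 ± 7.77 TPM. Ccna1 was close to it at 13.5 ± 2.23 TPM, and Ccnb3 was silent.

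Cell cycle inhibitors and E2F factors were expressed in 20 of 21 cases, with Trp63 as the exception. Cdkn2a, which encodes p16 and p19ARF, was at 156, 151 and 157 CPM and Cdkn2c, encoding p18, at 353, 334 and 361 CPM. Between them they held 53.6% and 43.7% of the INK4 family's TPM with the longest transcripts, an order that turned to 46.5% and 51.2% with median lengths. Rb1 was at 218, 183 and 174 CPM and Trp53 at 26.4, 27.8 and 31.9 CPM. A count over the whole gene does not show whether single exons are missing, so these levels do not check a deletion. The activator E2F genes E2f1 and E2f2 were at 124 and 219.6 CPM.

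The Myc family was divided between Mycl1, at 92.6, 74.8 and 52.9 CPM, and Myc, at 41.5, 46.4 and 47.2 CPM, with Mycn at 10.6, 9.29 and 7.46 CPM. Mycl1, the gene of L-Myc, is amplified in part of SCLC. The share of Mycl1 in the TPM of the 3 was 47.5% and that of Myc 44.8%, with Mycl1 the higher in both shEmpty libraries and Myc the higher in shNS. With median lengths the mean share of Mycl1 was 77.8%. Mycn took 7.77%.

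Several metabolic steps relied on 1 isozyme. Pkm2 (the row for the Pkm gene) and Ldha held nearly 100% of the TPM of pyruvate kinase and lactate dehydrogenase, and Ldhb, abundant in many tissues, was at 0.102, 0.182 and 0.0724 CPM. Aldoa held 97.4% of the aldolases, Pgam1 98.6% of the phosphoglycerate mutases and Slc2a1 95% of the glucose transporters Slc2a1 to Slc2a4. Hexokinase was led by Hk1 with 69.8% with the longest transcripts and 91.4% with median lengths. Phosphofructokinase was shared between Pfkl (58.7%), Pfkm (20.7%) and Pfkp (20.6%). With median lengths these shares were 59.2%, 3.89% and 36.9%. Eno1 was listed at 15.7 CPM, but it has near-identical copies in the mouse genome, as do Gapdh and many ribosomal protein genes, and HTSeq puts reads that align to more than 1 place in a row of their own, so its level is uncertain.

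**Figure D4:**
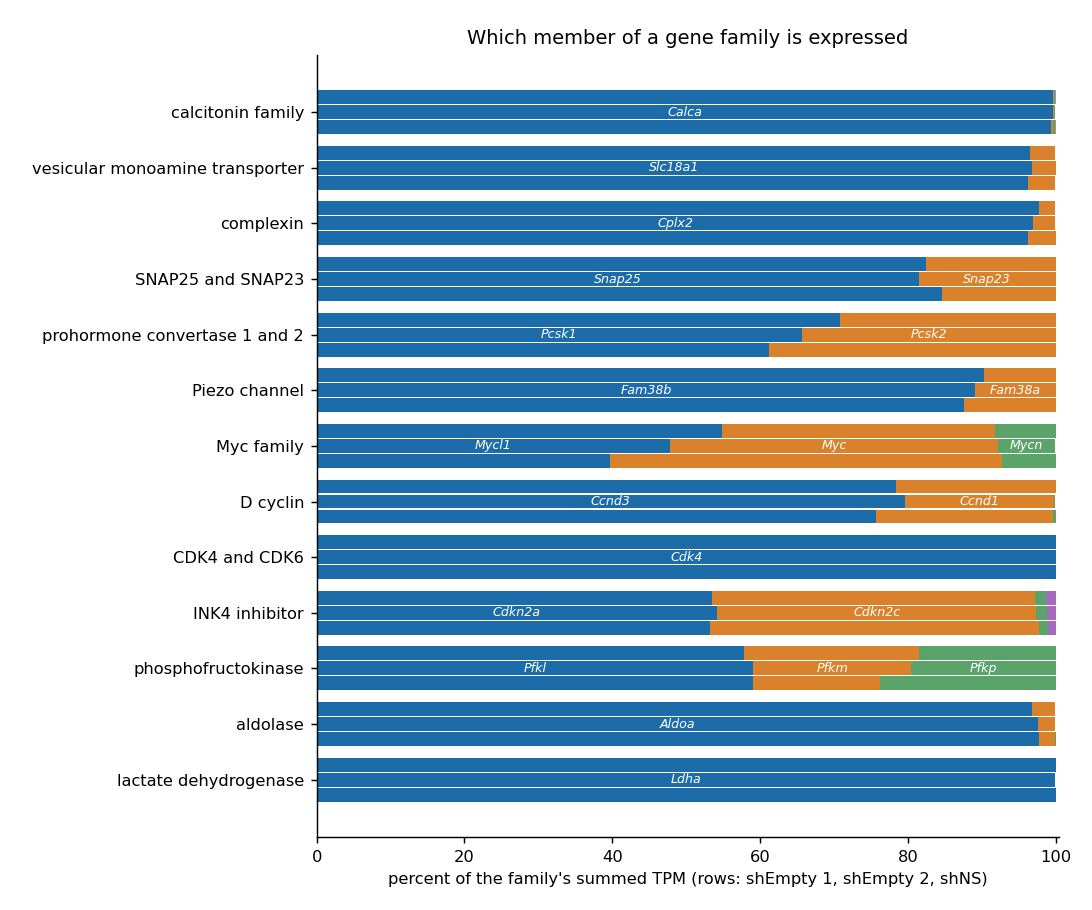
Share of each gene in the summed TPM of its family, in percent, with 1 bar each for shEmpty 1, shEmpty 2 and shNS from top to bottom in each family. Single members fill nearly the whole bar for the calcitonin family, CDK4 and CDK6, aldolases, lactate dehydrogenases and complexins (Cplx1 and Cplx2 only). Mycl1 and Myc change places between the top and the bottom bar.

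The acetyltransferases and CREB genes that the wider series was about were expressed in 18 of 18 cases in these controls. Crebbp was at 66.1, 69.3 and 68.9 CPM and its paralogue Ep300 at 121, 111 and 112 CPM. Ep300 was the higher in each library, also per length (32 ± 1.66 against 16.8 ± 0.369 TPM). Creb1 was at 124 CPM. Of the enzymes for DNA methylation and Polycomb silencing 11 of 12 were expressed, among them Dnmt1 at 459, 454 and 431 CPM and Ezh2 at 181, 209 and 204 CPM, and Dnmt3l was silent.

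The cells of the controls carried Y-linked messages. Ddx3y was at 84.3, 79.5 and 90.6, Eif2s3y at 72.2, 63.9 and 72.5, Kdm5d at 29.9, 24.8 and 23.4 and Uty at 24.3, 22.3 and 21.4 CPM. Xist, the RNA that coats an inactive X chromosome, was at 0.459, 0.364 and 0.362 CPM and Tsix had no read. Imprinted genes were expressed in 10 of 20 cases (50%, near the 54.3% of all genes). The highest were Nnat at 1803, 1984 and 1867 CPM and Igf2 at 399.8, 409.5 and 399.7 CPM, whereas H19, the neighbour of Igf2, was at 0, 0.121 and 0.0724 CPM. Dlk1 had no read and its neighbour Meg3 was at 0.102, 0.486 and 0.362 CPM.

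Antigen presentation and survival genes were present in part. Of a list of class I, peptide loading and class II genes 12 of 17 were expressed, among them all of its class I and peptide loading members. H2-K1 and H2-D1 were at 297, 313 and 316 CPM and at 307, 323 and 307 CPM, while B2m, the shared light chain, was at 13.2, 12.7 and 14.6 CPM. Per length B2m was at 42 ± 2.89 TPM against 441 ± 13.3 TPM for H2-K1. H2 genes are closely related to each other, so their reads may be split or set aside. The class II genes H2-Aa, H2-Ab1 and H2-Eb1 were silent. Cd74 and Ciita, which serve class II, lay between the limits, at 0.153, 0.182 and 0.217 and at 0.918, 0.789 and 1.3 CPM. In the BCL2 family 14 of 19 were expressed, led per length by Bax (294 ± 9.04 TPM), Mcl1 (127 ± 5.1) and Bcl2l1 (125 ± 3.11 TPM), with Bcl2 at 21.7, 25.6 and 24.1 CPM and Pmaip1, which encodes NOXA, at 0.0542 CPM.

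The 3 controls differed from each other by little for most genes. The median coefficient of variation of an expressed gene was 6.56%, and 95% of expressed genes were below 22.7%. The biological coefficient of variation over the 3 libraries was 0.073. Chi-square per degree of freedom was 4.55 between shEmpty 1 and shEmpty 2, 10.9 between shEmpty 1 and shNS, and 4.08 between shEmpty 2 and shNS. This sets each pair against counting noise alone, and shows only that no 2 files hold the same library. The numbers of expressed genes more than 2-fold apart were 10, 103 and 24 for the same pairs. The median absolute log2 ratio of expressed genes was 0.0974, 0.142 and 0.0981. By this ratio shEmpty 2 lay about as near to shNS as to shEmpty 1, and by the genes over 2-fold apart it lay nearer to shEmpty 1.

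Of the expressed genes, 116 (0.918%) had a highest level more than 2-fold above the lowest. In 96 of these 116 (82.8%) shEmpty 2 lay between the other libraries, against 52.9% of all expressed genes. The depth of the libraries falls in the same order, from shEmpty 1 to shEmpty 2 to shNS, and its part in this was not tested. The widest range was that of P2rx3, at 5.1, 12.1 and 25.1 CPM, followed by Chac1, a glutathione-degrading enzyme of the stress response, at 11.4, 29.8 and 47.8 CPM, and the non-coding Pvt1 at 8.11, 18.2 and 33.7 CPM. The signalling adaptor Pik3ap1 and the adhesion protein Cntnap4 ran the other way, at 16.2, 11.8 and 5.36 CPM and at 16.4, 10.9 and 5.58 CPM. The others of the 10 were the acid-sensing channel Accn1, the stress pseudokinase Trib3, the synaptic protein Elfn1, the translation repressor Eif4ebp1 and Ildr2.

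**Figure D5:**
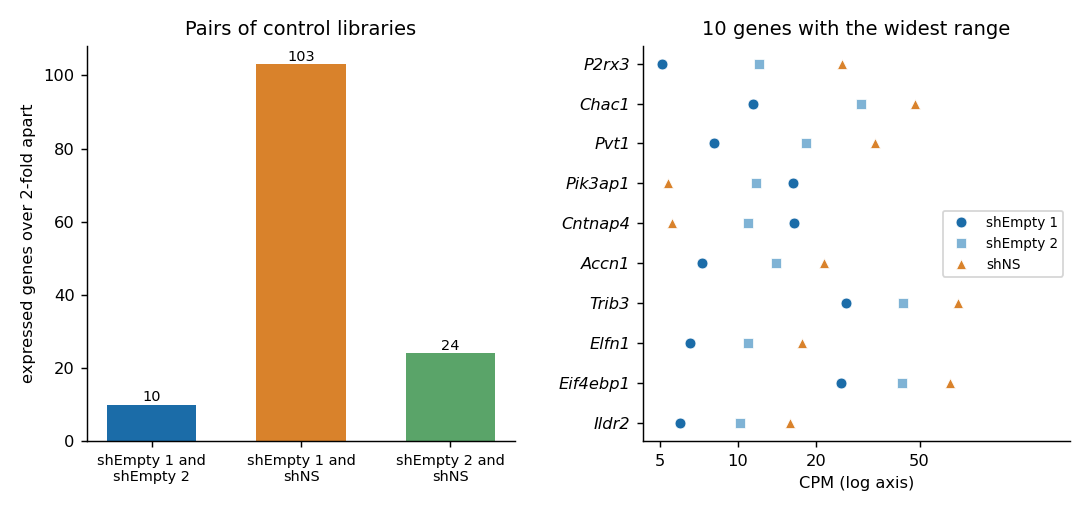
Left, the number of expressed genes over 2-fold apart in each pair of control libraries. Right, CPM on a log axis in each library for the 10 genes of widest range with a mean of at least 10 CPM. In each of the 10 the value of shEmpty 2 lies between those of shEmpty 1 and shNS.

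The single test between labelled groups of controls set shNS against the 2 shEmpty libraries. It assumes that the lone shNS library varies like the shEmpty pair, and it had 1 residual degree of freedom. With edgeR 454 of 13754 genes (3.3%) passed an adjusted p of 0.05, 188 (1.37%) higher in shNS and 266 (1.93%) lower. The count moved with the tool: limma-voom called 352 and DESeq2 12, and with the spread pooled over all 6 libraries edgeR called 0, with 111 at an unadjusted p below 0.05. In 435 of the 454 (95.8%) shEmpty 2 lay between the other libraries, and in 100 it was nearer to shNS than to shEmpty 1, so the vector and the order of the libraries cannot be told apart. The p-values borrow their spread across genes and rest on that single pair.

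Among the genes called higher in shNS, Dbn1, an actin-binding protein of dendritic spines, was at 0.561, 5.58 and 9.99 CPM, and it also differed between the shEmpty libraries. Chac1 (log2 difference 1.25 ± 0.12 SE), Trib3 (1.04 ± 0.11) and P2rx3 (1.58 ± 0.16) had the same order of libraries. Among those called lower were the orexin receptor gene Hcrtr1, at 11.4, 9.77 and 3.77 CPM (log2 difference -1.49 ± 0.23), the antioxidant enzyme Gpx3, at 89.8, 70.2 and 39.5 CPM, and Kcnk3, the acid- and oxygen-sensitive potassium channel described above. With only 1 shNS library these are differences of that library from the shEmpty pair, and 0 of these genes passed with the spread pooled over all 6 libraries. The others were Chn1, Nrp, Lrrc17, Elfn1, Accn1 and Pvt1 on the higher side and Pik3ap1, Cntnap4, Pcsk5, Tns1, Mgat4c, Il6ra and Msh5 on the lower.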

How the data were processed

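Poly(A)-selected RNA of 3 control libraries of preSC cells (2 shEmpty, 1 shNS) was sequenced. Per the submitters' processing notes, the build was mm9 and the tools HTSeq 0.6.1, TopHat2 2.0.12 and bcl2fastq 1.8.2. Not given in the sources used here were annotation, strand setting and treatment of reads in overlapping genes, so antisense and overlapping genes are uncertain. The deposited values are raw read counts per gene symbol. The 5 HTSeq summary rows (27% to 27.6% of reads) were left out. Reads carry no molecular identifiers, so counting limits assume independent reads.

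CPM used TMM factors from edgeR 4.0.16 in R 4.3.3. TPM used the longest transcript in GENCODE annotation of GRCm38, by symbol or synonym, for 22825 of 23284 names (98%). No coordinates were transferred from mm9. Promoters are from RefSeq (GRCm38.p6) and were found for 15701 of the names. The shNS library was compared with shEmpty by edgeR's quasi-likelihood test with Benjamini-Hochberg adjustment, with DESeq2 1.42.0, limma 3.58.1 voom and other normalizations, filters and left-out libraries as alternatives. The test code was checked on simulated data.

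The libraries, marker genes and gene lists were chosen with earlier results of these data known. The rule names the 6 markers, the 20 highest genes by CPM and by TPM, up to 6 expressed members of highest TPM and 6 silent members per list (all members of lists of at most 12), the 10 genes of widest range with a mean of at least 10 CPM, and 10 called genes per direction whose average log2 CPM reached 2. Other list members given below their list's 6 highest, or between the limits, were named for their known role after their values were seen, among them Rest, Vim, Rb1, Trp53, Crebbp, Ep300, Krt19, Ccnd1, Ccnd3, Hk1, Mki67, Ncam1, Cadps2 and Rab27a. Some genes that the rule names are not reported here.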

Additional observations from a re-analysis of the deposited data

How the results depend on the processing

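The number of expressed genes (12636) and of silent genes (7022) kept within 1.5 times under each alternative run. Plain CPM, DESeq2 size factors and TMM factors over all 6 libraries left both counts as they were. Thinning to equal depth gave 12610 expressed and 7237 silent genes, and leaving out a library gave 12701 to 12744 expressed and 7250 to 7370 silent genes. Limits of 0.5 and 5 CPM gave 13305 and 10952 expressed genes, and 1 CPM in any library gave 13176. Taking only genes without a read gave 5791 silent genes and a limit of 0.5 CPM gave 9237. The biological coefficient of variation of 0.073 ran from 0.0545 to 0.103 when a library was left out. Of 691 named levels, 1 to 6 moved beyond their SD when a library was left out, at most 1.65-fold for an expressed gene. TPM moved beyond its SD in 385 of 687 genes when median transcript lengths were used, so the order of genes per length is less sure than the levels of a gene over libraries. Chosen after seeing the data, recounting 76 lists without each library moved the number of expressed members by 0 in 54 lists and by at most 3. The count of 454 genes between shNS and shEmpty was 452 with DESeq2 size factors in edgeR, 398 with no filter, 348 with a filter of 1 CPM, 454 with non-robust estimation and 352 with limma-voom, but 12 with DESeq2 and 0 with the spread pooled over all 6 libraries, where 111 had an unadjusted p below 0.05. Without control replicate 1 or 2 and with pooled spread it was 0 and 0 (11 and 71 at an unadjusted p below 0.05). Leaving out the shNS library leaves no comparison. No paired analysis was possible because the shNS and shEmpty libraries share no replicate number and no comparison with the hairpin libraries was made. Depth limits the silent class: 0.1 CPM is 1 to 2 reads here, and 3 reads are 0.153 to 0.217 CPM.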

Other observations

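Further families of transcription factors differed in the share of members expressed, against 54.3% of all genes. It was near that for SOX (52.6%) and forkhead genes (52.3%) and higher for Kruppel-like factors (76.5%). It was lower for GATA (33.3%), NKX (30.8%) and PAX genes (11.1%). Of the SOX genes 10 of 19 were expressed, with Sox1 (375 CPM), Sox11 (301), Sox4 (168), Sox12 (117) and Sox2 (106 CPM) the highest, and Sox10, Sox14, Sox17 and Sox30 silent. Of the forkhead genes 23 of 44 were expressed, of the Kruppel-like factors 13 of 17, led per length by Klf9 (87.4 ± 5.4 TPM), and of the NKX genes 4 of 13. Of the PAX genes 1 of 9 passed the limit, Pax6 at 1.07, 1.03 and 1.16 CPM, and of the GATA genes Gata6 and Gata2 did. The ID proteins, which block basic helix-loop-helix factors, were all expressed, with Id1 at 364, 443 and 524, Id2 at 419, 405 and 421, Id3 at 222, 232 and 247 and Id4 at 394, 359.7 and 287 CPM.

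Families of channels and receptors of excitable cells differed in the share of members expressed. It ran from 26.3% of GABA-A subunits to 60% of calcium channel alpha subunits, against 54.3% of all genes. Of the calcium channel alpha subunits 6 of 10 were expressed, led by the low-voltage channel Cacna1h at 234, 212 and 152 CPM, followed by Cacna1a at 87.2 and Cacna1b at 51.2 CPM, while Cacna1d, a channel of chromaffin and beta cells, was at 0, 0.121 and 0.0724 CPM. Of the sodium channel alpha subunits 4 of 9 were, led by Scn9a at 86, 74.9 and 68.4 CPM. Of the GABA-A subunits 5 of 19 were. Of the nicotinic subunits 5 of 16 were, with Chrnb2 at 79.2, 84.2 and 82.3 CPM, Chrna3 at 7.65, 9.65 and 13.7 and Chrnb4 at 7.4, 8.19 and 9.42 CPM, while Chrna7 was at 0.204, 0.0607 and 0.217 and Chrna4, the usual partner of Chrnb2, at 0.255, 0.243 and 0.0724 CPM. Robo1, a receptor for Slit guidance cues, was at 629, 558 and 500.0 CPM and its ligand gene Slit1 at 35.3, 34.8 and 29.6 CPM, with Slit3 and Robo4 silent. Chrna4 and Chrna7 were named after their values were seen.

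Among stress and cytoskeletal families, the metallothioneins were expressed in 3 of 4 cases, with Mt2 at 215, 256 and 274 CPM and Mt3, the brain form, at 35.3, 49.3 and 60.4 CPM. Annexins were expressed in 7 of 12 cases, led by Anxa6 (249 ± 14.4 TPM) and Anxa11 (176 ± 12.4 TPM), whereas Anxa2, abundant in many epithelia, was at 7.6, 8.98 and 13.3 CPM. Of the S100 proteins 5 of 17 were expressed, and S100a6 was at 0.467 CPM. The share was 29.4% for S100 proteins and 58.3% for annexins, against 54.3% of all genes. Tubb5 was the leading tubulin at 1824 ± 76.8 TPM, with the neuronal Tubb3 at 86.9, 108 and 129 CPM.

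Of the 1101 olfactory receptor genes with a row, 2 were expressed. Olfr613 was at 68, 73.1 and 80.2 CPM, above most neuroendocrine peptides of the list, and Olfr543 was at 1.22, 1.94 and 1.59 CPM. Of the 325 vomeronasal receptor genes 3 were expressed: Vmn1r58 at 25.4, 22.8 and 26.7, Vmn2r29 at 4.9, 3.76 and 4.78 and Vmn1r65 at 3.21, 4.43 and 3.69 CPM. Where such reads lie in the gene is not seen in a count, and reads of an overlapping transcript cannot be told apart.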
